A study of Mus musculus with 6 samples.

Results

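Voltage-gated sodium channels were followed in mouse pro-B cells without Pax5 after forced expression of the transcription factor EBF. The set was defined by gene name as Scn4b, Scn2b and Scn3b, which encode beta subunits, and Scn1a, Scn3a, Scn4a and Scn8a, which encode alpha subunits. Every probe set carrying exactly one of these 7 symbols was kept separate. That gave 16 probe sets for 6 of the 7 genes, out of 45037 probe sets and 18193 named genes on the array, while no probe set carried the symbol Scn4a alone, so this gene was not analysed here. Scn4b had 1 probe set, Scn2b 3, Scn3b 2, Scn1a 3, Scn3a 2 and Scn8a 5. The set was drawn up after Scn4b had been seen among the largest increases in the same comparison, so the EBF-minus-control values of its members are given as a description, without a test.

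The EBF group comprised 3 arrays of Pax5-/- pro-B cells infected with the Mig-EBF retrovirus, and the control group 3 arrays of Pax5-/- pro-B cells infected with MigR1, a control virus. Both groups therefore lacked Pax5, and both were grown on ST2 stromal cells with IL-7 (5 ng/ml). The cells were sorted for GFP 2 days after infection. The labels number the arrays within each group but do not say whether they came from separate cultures, and any p-value here reflects array-to-array spread that may be technical. They also do not give the number of cell clones or donor mice. Since bulk RNA was measured, more expressing cells and more RNA per cell cannot be told apart.

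A voltage-gated sodium channel consists of a large alpha subunit, which forms the pore, the voltage sensor and the inactivation gate, and of smaller beta subunits that span the membrane once. Beta subunits carry an extracellular immunoglobulin-like domain, alter channel gating and surface density, and also act as adhesion molecules. The products of Scn2b and Scn4b are linked to the alpha subunit by a disulphide bond, whereas that of Scn3b is held non-covalently. These genes are best known from neurons, heart and skeletal muscle.

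Scn4b and Scn2b are direct neighbours on mouse chromosome 9, where Scn3b also lies at a distance. Scn1a and Scn3a are on chromosome 2, Scn8a is on chromosome 15 and Scn4a is on chromosome 11, next to Cd79b. The 250 bases before the annotated starts of the 2 adjacent beta subunit genes are shown because these neighbours gave different values on the arrays. Both are RefSeq sequences from the plus strand of build GRCm38.p6, Scn4b at chr9:45138374-45138623 and Scn2b at chr9:45117626-45117875. Capitals mark the CpG dinucleotides.
Scn4b: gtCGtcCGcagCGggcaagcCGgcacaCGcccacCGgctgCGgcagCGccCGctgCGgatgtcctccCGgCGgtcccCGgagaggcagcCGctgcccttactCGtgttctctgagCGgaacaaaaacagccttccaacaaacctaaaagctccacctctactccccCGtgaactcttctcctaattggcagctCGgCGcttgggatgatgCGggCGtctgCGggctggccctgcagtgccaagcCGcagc
Scn2b: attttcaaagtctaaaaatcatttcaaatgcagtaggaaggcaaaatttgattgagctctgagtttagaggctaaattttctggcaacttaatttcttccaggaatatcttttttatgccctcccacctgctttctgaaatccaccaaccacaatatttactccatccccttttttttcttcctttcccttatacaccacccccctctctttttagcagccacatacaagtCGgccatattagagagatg

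The Scn4b window held 23 CpG dinucleotides and was 66% G or C, and the Scn2b window held 1 CpG and was 38.4% G or C. Over all 32851 RefSeq windows of this length the medians were 6 CpG and 52.4%. The other members with a window varied as widely, with 4 CpG for Scn1a, 4 for Scn4a, and 30 and 9 for the 2 starts of Scn8a, so a CpG-rich window was not particular to Scn4b. The core of the EBF binding motif, CCCNNGGG, which reads the same on both strands, was found in none of the 6 windows of the 5 members that had one, and in 11.8% of all windows. This says only that these letters do not occur in these windows.

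Low values were read against 27 control probe sets for Bacillus transcripts, whose medians were 97.6 to 108 per array and whose highest value was 410. Array medians lay between 424 and 451. EBF 3 lay farthest from the rest of its group: the SD of its log2 differences from the mean of the other EBF arrays was 0.22, against 0.15 to 0.18 for every other array. Of the pro-B markers 14 of 15 were measured, and each had a probe set above that highest Bacillus value on all 6 arrays, among them Vpreb1, Igll1, Rag1, Il7r and Cd79b.

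Scn4b was the sodium channel gene that stood out. Its product is the beta subunit known in neurons for supplying the cytoplasmic tail that blocks the open channel and gives resurgent current. The Scn4b probe set (1434008_at) read 1343, 1378 and 1421 in EBF 1 to 3, against 412, 387 and 292 in control 1 to 3. The groups did not overlap, and the control values lay around the highest Bacillus value, so that 1 of the 3 control arrays exceeded it. The means were 1381 ± 38.8 in EBF arrays and 363.7 ± 63.1 in control arrays (SD, n = 3 each). On the scale of log2(intensity + 32), which is used for all differences here, the EBF-minus-control difference was 1.85 ± 0.12 (limma SE), a 3.60-fold higher level. The ratio of the mean intensities was 3.80. Ranked by this difference, Scn4b was 5th of 45037 probe sets.

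The EBF arrays were close together in Scn4b and the control arrays less so. Taking arrays of the same number together, the difference was 1.63, 1.75 and 2.16 for numbers 1, 2 and 3, and number 3 joins the highest EBF array to the lowest control array. Leaving out any 1 array gave differences of 1.71 to 1.94, and it was 1.83 without EBF 3. Scn4b has a single probe set, so no second probe set of the gene could be compared with it.

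**Figure D1:**
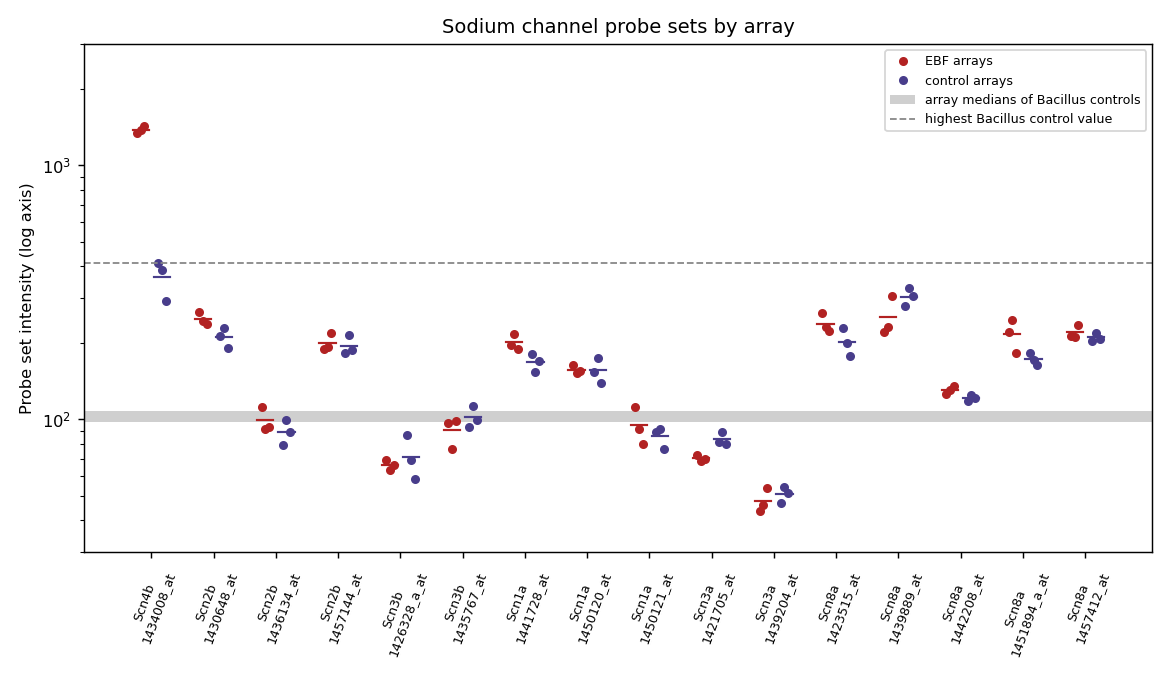
Intensity of each of the 16 sodium channel probe sets (log axis) in the 3 EBF arrays (red, left of each pair) and the 3 control arrays (dark, right), with short bars at the group means. The grey band covers the array medians of the Bacillus controls and the dashed line their highest value of 410. The 3 EBF values of Scn4b, 1343 to 1421, stand above that line, and the other 15 probe sets lie below it on all arrays.

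The other beta subunit genes were dim. Scn2b, whose product resembles that of Scn4b in its disulphide link to the channel, was read by 3 probe sets that stayed between 79.3 and 263 on all arrays. The one with the largest difference, 1430648_at, read 263, 244 and 238 in EBF arrays, against 212, 229 and 190 in control arrays. These groups did not overlap, but the gap was small: the difference was 0.21 ± 0.08 (SE). The other Scn2b probe sets overlapped between groups, with differences of 0.11 ± 0.09 (1436134_at) and 0.03 ± 0.09 (1457144_at). Scn3b, a beta subunit gene of brain and heart, read 66.2 ± 3.15 in EBF arrays and 71.3 ± 14.3 in control arrays at 1426328_a_at (SD, n = 3 each). At 1435767_at it read 90.5 ± 12.5 in EBF arrays and 101.7 ± 9.72 in control arrays. The first Scn3b probe set lay below the Bacillus medians in both groups and the second near them, and the groups overlapped at both, with differences of -0.06 and -0.13.

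None of the alpha subunit genes had a probe set above the highest Bacillus value on any array. Scn8a, which encodes the alpha subunit of nodes of Ranvier, was covered by 5 probe sets, and these pointed in different directions. At 1451894_a_at it read 220.1, 246 and 182 in EBF arrays, against 182, 171 and 164 in control arrays, a difference of 0.27 ± 0.10 (SE). At 1439889_at the values were 219.8, 231 and 304 in EBF arrays, against 279, 327 and 304 in control arrays, a difference of -0.25 ± 0.12. In both, EBF 3 lay nearer to the control arrays than EBF 1 and EBF 2 did. Without EBF 3 the differences were 0.38 and -0.38. The remaining Scn8a probe sets had differences of 0.21 (1423515_at), 0.08 (1442208_at) and 0.06 (1457412_at), and groups were separate in 1442208_at alone, with a lowest value of 125.4 in EBF arrays and a highest value of 125.01 in control arrays.

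Scn1a, an alpha subunit gene of inhibitory neurons, read 197, 216 and 189 in EBF arrays at 1441728_at, against 180.5, 153 and 170 in control arrays. These groups were separate by a narrow margin, with a difference of 0.22 ± 0.08 (SE). Its other probe sets overlapped, with differences of 0.01 (1450120_at) and 0.10 (1450121_at). Scn3a, an alpha subunit gene of the embryonic nervous system, was the member with separate groups in the opposite direction. At 1421705_at it read 72.6, 68.6 and 69.7 in EBF arrays, against 81.7, 89.0 and 79.9 in control arrays, a difference of -0.18 ± 0.07. All of these values were below the Bacillus medians, and the other Scn3a probe set overlapped at 43.6 to 53.4 in EBF arrays and 47.0 to 54.1 in control arrays.

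Across the set, groups did not overlap in 5 of 16 probe sets, 4 higher and 1 lower in EBF arrays. Over all probe sets this held for 23.2%, with 15.5% higher and 7.67% lower. In the fit to all 45037 probe sets (limma, Benjamini-Hochberg adjusted p under 0.05) 1 of the 16, Scn4b, was called and it was higher, against 0.875% of all probe sets called (155 higher and 239 lower). Because this contrast led to the choice of the set, nothing is read from these counts. A fit that added the replicate number as a block, the blocked fit, also called Scn4b alone of the 16, against 7.28% of all probe sets. Without EBF 3, 3 members were called, Scn4b and the Scn8a probe sets 1439889_at (lower) and 1451894_a_at (higher), while 9.52% of all probe sets were called. Without EBF 3 and control 2 together 1 member was called, Scn4b, and 4.19% of all probe sets. The median difference was 0.07 over the 16 and 0.06 over the 15 other than Scn4b, against 0.02 over all probe sets. Those 15 ranged from -0.25 to 0.27, and their sizes are set partly by the added 32, which shrinks differences of dim probe sets.

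**Figure D2:**
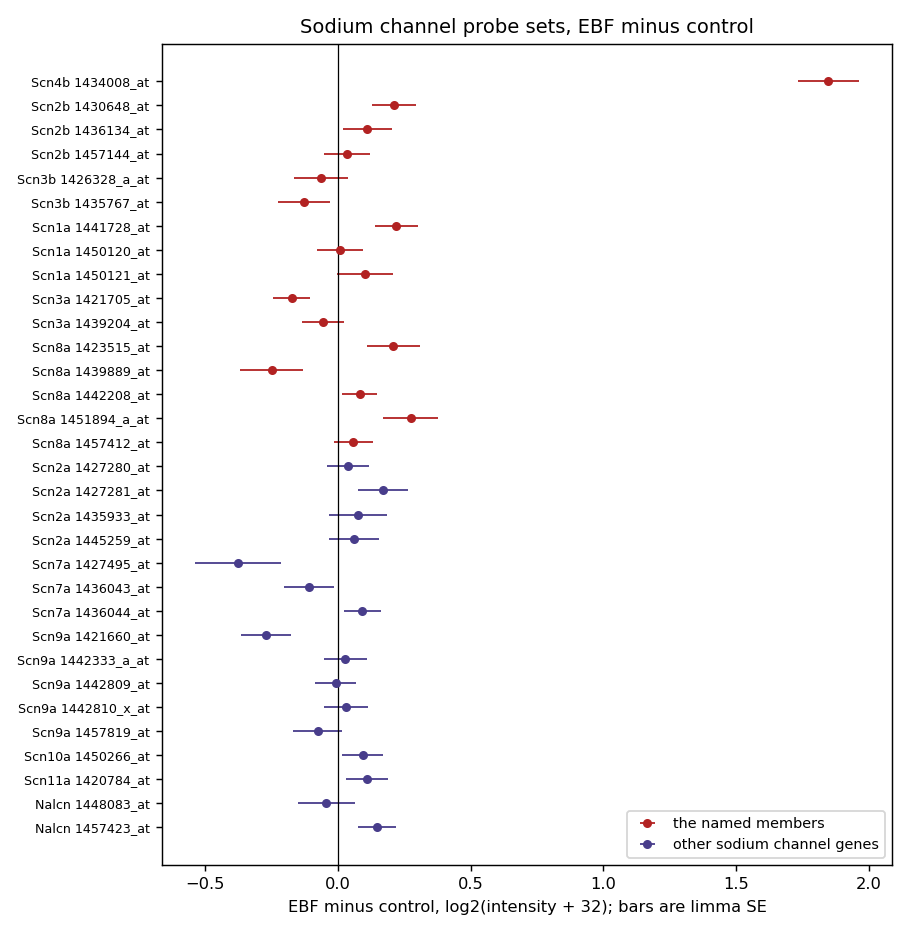
EBF minus control on the scale of log2(intensity + 32) for each sodium channel probe set, with limma standard errors as bars. The named members are in red and the other sodium channel genes in dark blue. Scn4b is at 1.85, and the other 31 probe sets lie between -0.38 and 0.27.

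The rest of the sodium channel family lay outside the rule, but this list too was chosen with earlier results of these data known. Of 8 further genes 6 were measured, by 16 probe sets. By limma 0 of these 16 changed (unadjusted p under 0.05 for 0 higher and 2 lower), and 0 changed in the blocked fit. Over all probe sets these fits called 0.875% and 7.28%. With 16 probe sets, 0 calls cannot set this list apart from that share. For unadjusted p under 0.05 the share over all probe sets was not examined, here or for the lists below. The median difference of the 16 was 0.03. The pair of lower ones were Scn7a, a sodium-sensing relative of the channels (1427495_at, -0.38 ± 0.16, adjusted p = 0.257), and Scn9a, the channel of pain-sensing neurons (1421660_at, -0.27 ± 0.09, adjusted p = 0.190). This Scn9a probe set read 66.7 to 78.7 in EBF arrays and 82.5 to 106 in control arrays, near or below the Bacillus medians. The other 4 Scn9a probe sets had differences of -0.08 to 0.03. Scn7a read 155, 132 and 192 in EBF arrays, against 163, 252 and 240 in control arrays, so these groups overlapped, and its other probe sets had differences of -0.11 and 0.09. Scn2a, a channel of axons, had 4 probe sets with differences of 0.04 to 0.17. Scn10a and Scn11a, channels of sensory neurons, had 0.09 and 0.11. The sodium leak channel gene Nalcn read 429 to 473 in EBF arrays and 385 to 414 in control arrays at 1457423_at, a difference of 0.15 ± 0.07 (adjusted p = 0.315), and its other probe set had -0.04.

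Position was examined through the 8 nearest protein-coding genes on each side of Scn4b in the RefSeq order. Of these 16 neighbours 14 were measured, by 31 probe sets. These include the 3 of the member Scn2b, so the counts for this list are given as a description. By limma 0 changed, against 0.875% of all probe sets called. Unadjusted p was under 0.05 for 7 higher and 2 lower, a threshold at which the share over all probe sets was not examined. The median difference was 0.05. The smallest p belonged to Il10ra, an interleukin receptor chain, separated from Scn4b by Tmprss4 and BC049352. Its probe set 1448731_at read 607, 784 and 535 in EBF arrays, against 1207, 873 and 1221 in control arrays, a difference of -0.75 ± 0.16 (adjusted p = 0.0884). The groups were separate, and in the blocked fit the adjusted p was 0.0250. Its other probe sets had -0.03 and -0.08. Dscaml1, a neural adhesion gene, had the next smallest p (1427392_at, 0.37 ± 0.12, adjusted p = 0.177, blocked 0.0224), and its other 4 probe sets had -0.12 to 0.17. The blocked fit thus called 2 of the 31, 1 in each direction, against 7.28% of all probe sets. On the other side of Scn2b, the T cell receptor chain genes Cd3g, Cd3d and Cd3e had differences of -0.23, 0.04 and -0.06, and none of them passed in either fit.

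**Figure D3:**
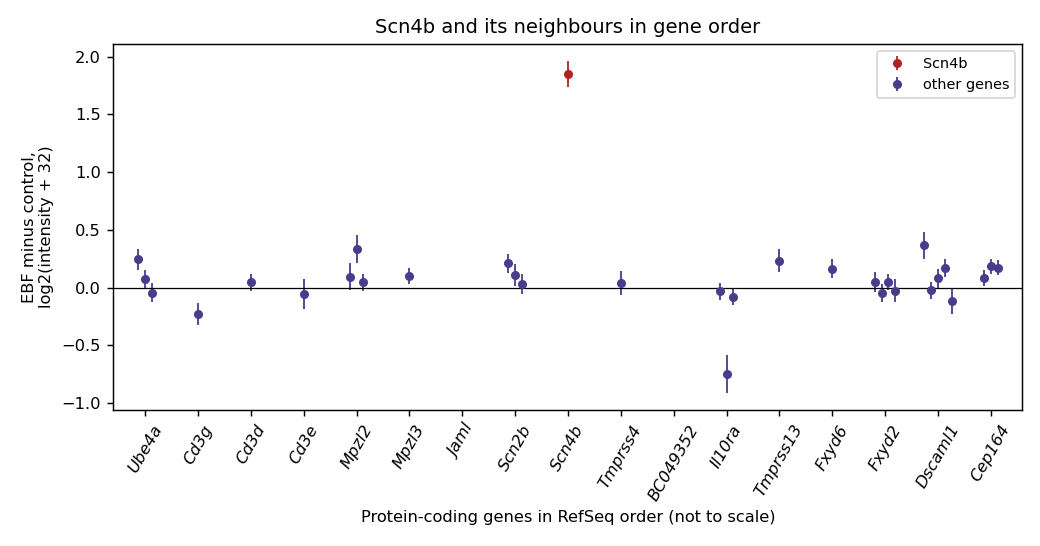
EBF minus control, log2(intensity + 32), for Scn4b (red) and its 8 nearest protein-coding genes on each side in RefSeq order (dark blue), 1 point for each probe set with limma standard errors. Jaml and BC049352 have no point because no probe set was named for them alone. Scn4b is at 1.85 and the adjacent Scn2b at 0.03 to 0.21, while Il10ra has 1 probe set at -0.75.

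Genes that anchor, modify or cleave sodium channels gave 0 calls by limma, against 0.875% of all probe sets called. Nothing is read from this count. Of 25 listed partners 20 were measured, by 78 probe sets, of which 0 changed by limma (unadjusted p under 0.05 for 9 higher and 4 lower) with a median of 0.02. The smallest p-values were those of Ank2, an ankyrin that anchors membrane channels, and its probe sets disagreed: 1440043_at had 0.33 ± 0.09 (adjusted p = 0.127) and 1434264_at had -0.30 ± 0.08 (adjusted p = 0.132), both from intensities under 100. The blocked fit called 4 of the 78, against 7.28% of all probe sets. They were 1 probe set each of Ank2 (0.35) and Ank3 (0.46) as higher, and 2 of Nedd4l (-0.43 and -0.34) as lower. Nedd4l is a ubiquitin ligase that removes channels from the membrane. At its bright probe set 1423269_a_at, Nedd4l read 1810, 1723 and 1238 in EBF arrays, against 2423, 2321 and 1692 in control arrays (adjusted p = 0.237, blocked 0.0120). Groups overlapped there, since control 3 lay below EBF 1 and EBF 2. The Nedd4l probe sets also disagreed: 1441305_at had 0.26 with EBF arrays above all control arrays, and the other 3 had -0.36, -0.12 and -0.05.

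Other voltage-gated channels gave 1 call among potassium and proton channels and 0 among calcium channels, against 0.875% of all probe sets called. Nothing is read from these counts. Kcna1, a potassium channel of axons, was the 1 of 47 potassium and proton channel probe sets to rise, and 0 fell. At 1455785_at it read 392, 372 and 356 in EBF arrays, against 265, 267 and 220 in control arrays, a difference of 0.52 ± 0.09 (limma adjusted p = 0.0416). All of these values were below the highest Bacillus value of 410. The other Kcna1 probe sets had -0.11, -0.02 and 0.15 and did not pass, with -0.11 at the brighter 1417416_at. The call at 1455785_at held without EBF 3 but not without any of the other arrays (limma adjusted p up to 0.177). The list median was 0.02. Of 48 calcium channel probe sets 0 changed by limma (unadjusted p under 0.05 for 4 higher and 2 lower; median -0.01). The smallest p there belonged to Cacna1e, a pore subunit gene, with 309 ± 39.8 in EBF arrays and 211.9 ± 15.1 in control arrays (SD, n = 3 each, limma adjusted p = 0.0749, blocked 0.00868). Its other probe set, which was brighter, had -0.10. Cacna2d2, an auxiliary subunit gene, followed with 0.35 ± 0.08 (limma adjusted p = 0.0950, blocked 0.0305). Its other probe sets had -0.10 and, at the brightest of them, -0.05. With the block 3 calcium channel probe sets were higher and 0 lower, against 7.28% of all probe sets called.

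Channels that lymphocytes are known to use, such as the calcium entry genes Orai1 and Stim1, had a median difference of -0.13 over 41 probe sets of 19 genes, against 0.02 over all probe sets. By limma 0 changed (unadjusted p under 0.05 for 0 higher and 7 lower), and 0 changed in the blocked fit. Over all probe sets the adjusted calls of these fits were 0.875% and 7.28%, and nothing is read from the 0 calls. Groups were separate in 11 of the 41, all lower in EBF arrays, against 7.67% of all probe sets separate in that direction. Stim1, the calcium sensor of the endoplasmic reticulum, read 1265, 1116 and 1151 in EBF arrays at 1448320_at, against 1449, 1387 and 1400.2 in control arrays (-0.26 ± 0.07, adjusted p = 0.150), and its other probe set had -0.02. Itpr2, a calcium release channel of the same compartment, had -0.29 ± 0.08 at 1427287_s_at (adjusted p = 0.134), and its other 5 probe sets had -0.20 to 0.02.

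Among sodium pumps, exchangers and the epithelial sodium channel, 27 probe sets of 14 genes gave 0 calls by limma, against 0.875% of all probe sets called. Their median difference was 0.03, and unadjusted p was under 0.05 for 7 higher and 3 lower. Fxyd5, a regulator of the sodium pump, had 5844 ± 381 in EBF arrays and 7706 ± 128 in control arrays (SD, n = 3 each; -0.40 ± 0.07, limma adjusted p = 0.0578, blocked 0.0173). Slc9a3r1, a scaffold for sodium-proton exchangers, had -0.32 ± 0.08 at 1438116_x_at (adjusted p = 0.130, blocked 0.0436), and its other probe sets had -0.22 and -0.03. The blocked fit called 4 probe sets higher, 2 of the cotransporter gene Slc12a2 and 2 of the pump subunit gene Atp1b1, and these 2 lower. That made 6 of 27, against 7.28% of all probe sets.

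Beta subunits share their immunoglobulin-like domain with a group of membrane adhesion proteins. Against 0.875% of all probe sets called, 1 of 24 probe sets for such adhesion genes rose and 0 fell. It was 1428167_a_at of Mpzl1, a membrane glycoprotein that signals through tyrosine phosphorylation, with 239, 270.0 and 262 in EBF arrays, against 174, 164 and 136 in control arrays (0.61 ± 0.09, limma adjusted p = 0.0288). The other Mpzl1 probe set, which was brighter, had -0.03 ± 0.09 (adjusted p = 0.889). This call, too, held without EBF 3 and was lost on leaving out any of the other arrays (adjusted p up to 0.154). The list median was 0.07, and the blocked fit called 2 probe sets higher, the other being one of F11r (0.53). Over all probe sets the blocked fit called 7.28%.

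**Figure D4:**
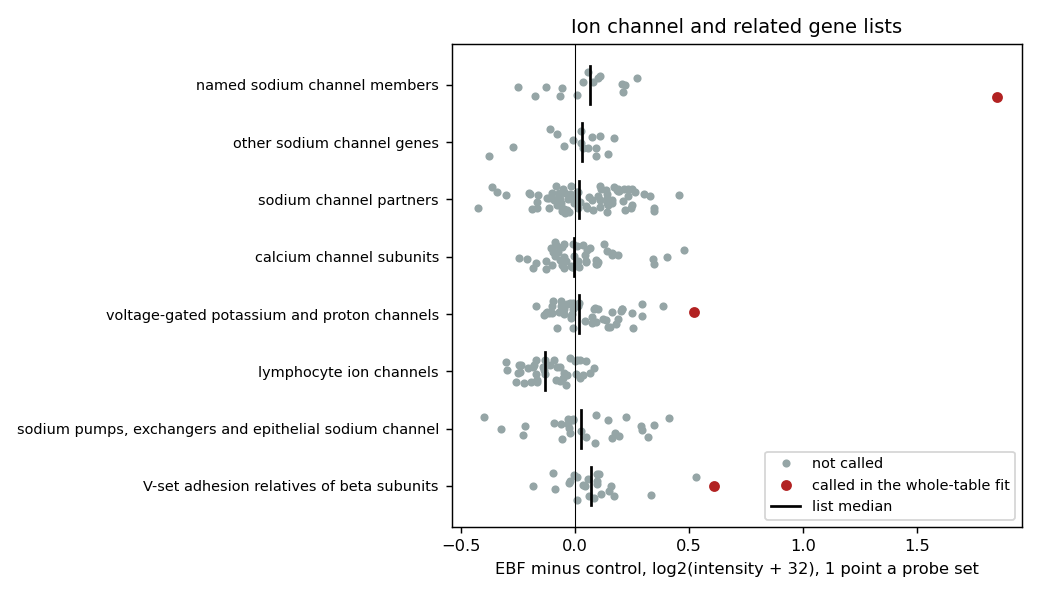
EBF minus control, log2(intensity + 32), for each probe set of the named sodium channel members and of 7 related lists, with black bars at the list medians. Red points were called in the fit to all probe sets: Scn4b among the members, and 1 probe set each of Kcna1 and Mpzl1. Points are spread vertically only to separate them.

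The probe sets most like Scn4b over the 6 arrays were found by the Euclidean distance between profiles, each centred on its own mean of log2(intensity + 32). This likeness includes the group difference for which Scn4b was noticed, so it is a description. The nearest was a probe set of Gfra2, a co-receptor for neurturin (1459847_x_at), at a distance of 0.41. It read 2272, 2600.4 and 1916 in EBF arrays, against 790.4, 713 and 474 in control arrays. Next, at 0.51, came a probe set of Ms4a1, which encodes CD20, with 174, 227 and 227 in EBF arrays, against 28.6, 35.5 and 37.1 in control arrays. These control values lay below the Bacillus medians, so the distance of Ms4a1 and its place depend on the added 32. Ret, the receptor tyrosine kinase that works with the Gfra co-receptors, followed at 0.67. The Ret probe set read 318, 303 and 342 in EBF arrays, against 124, 122 and 89.5 in control arrays. The scaffold gene Akap12 at 0.73 and the dipeptidase gene Cndp2 at 0.76 completed the 5 nearest genes. Each gene entered by its nearest probe set alone. Gfra2, Ms4a1, Ret and Cndp2 also have a brighter probe set, which is not described here. In Gfra2, Akap12 and Cndp2 EBF 3 was the lowest EBF array, whereas in Scn4b it was the highest. Control 3 was the lowest control array in Scn4b and in 4 of these 5 genes, Ms4a1 being the exception.

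**Figure D5:**
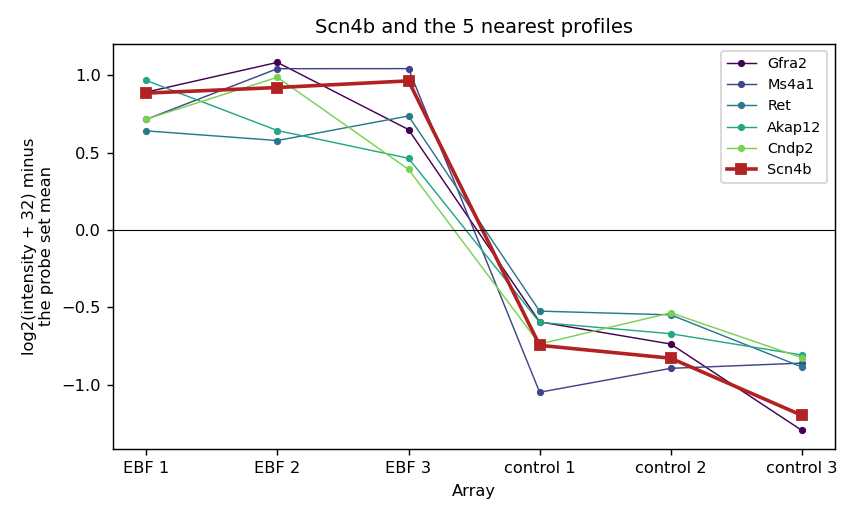
Profiles of Scn4b (red squares) and of the 5 genes with the nearest profiles over the 3 EBF arrays (left) and the 3 control arrays (right), as log2(intensity + 32) minus the mean of each probe set. Lines join the values of 1 probe set and imply no order of arrays. Distances from Scn4b were 0.41 for Gfra2 to 0.76 for Cndp2.

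Markers of excitable tissues were examined beside Scn4b. Over all probe sets the limma fit called 0.875% and the blocked fit 7.28%. Of 10 neuron markers all were measured, and the summed intensity of their brightest probe sets was 4439 to 5120 in EBF arrays and 4087 to 4702 in control arrays, so the groups overlapped. Of their 21 probe sets 0 rose and 3 fell (3 and 4 in the blocked fit), the 3 that fell being all of Syt1, the calcium sensor of vesicle release (-0.97, -0.69 and -0.46; limma adjusted p = 0.00258, 0.0130 and 0.0480). Tubb3, a neuronal tubulin, had 1.39 ± 0.34 (adjusted p = 0.112, blocked 1.32e-04), and Snap25, a defining neuronal marker, read 41.3 in EBF arrays and 38.4 in control arrays on average, below the Bacillus medians. The sum over 10 heart and skeletal muscle markers was 2806 to 3395 in EBF arrays and 2340 to 2529 in control arrays. The groups did not overlap in this sum, but without Tnnt3, left out after its values were seen, they did, at 2260 to 2425 in EBF arrays and 2064 to 2315 in control arrays. Tnnt3, the fast skeletal troponin T gene, read 382, 886 and 1051 in EBF arrays, against 133, 214 and 276 in control arrays (1.68 ± 0.35, adjusted p = 0.0802, blocked 1.32e-04). Of the 14 muscle probe sets 0 changed by limma (unadjusted p under 0.05 for 4 higher and 0 lower), and the blocked fit called 3 higher and 0 lower. Without Tnnt3, 13 probe sets remained, with differences of -0.06 to 0.46 and 2 called higher in the blocked fit. Groups were separate in 3 of these 13, all higher in EBF arrays, against 15.5% of all probe sets separate in that direction. Of the 10 genes listed, the 3 defining heart genes Myh6, Myh7 and Myl7 averaged 175 or less in both groups. The sum over 10 stromal markers, which ST2 cells could contribute, overlapped at 10468 to 15618 in EBF arrays and 12852 to 22984 in control arrays (0 of 19 probe sets called, and 1 lower in the blocked fit). Summed T and NK cell markers were lower in EBF arrays, at 6331 to 8086, than in control arrays, at 8291 to 10542. Of their 16 probe sets for 11 genes 1 rose and 2 fell, or 2 and 3 in the blocked fit. Differences in this list ran from -2.06 to 2.78, so the lower sum does not hold for each marker. Summed myeloid markers were 3894 to 4077 in EBF arrays and 4505 to 4888 in control arrays (9 genes, 11 probe sets, of which 0 rose and 2 fell, also in the blocked fit). The summed pro-B markers were higher in EBF arrays, at 82916 to 85039, than in control arrays, at 74182 to 77586, while 1 of their 30 probe sets rose and 3 fell (5 and 4 in the blocked fit). The part of these markers in the Scn4b values was not tested.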

How the data were processed

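The deposited file holds 1 intensity per probe set and array on a linear scale, from 1 upward. Per the labels' protocols, 6 microg total RNA gave biotin-labelled cRNA. Not given in the sources used here were the software, background step and normalization behind the deposited intensities. The series text names a rat array, but probe sets matched the table of a mouse platform, which was used for gene names (34945 probe sets with 1 symbol, 932 with several, 9160 with none listed). The members and lists were chosen with earlier results of these data known.

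Values were taken as log2(intensity + 32) without further scaling (trimmed means differed by at most 1.035 times), and 64 Affymetrix controls were left out. The contrast of EBF with control arrays used lmFit and eBayes of limma 3.58.1 (R 4.3.3) over 45037 probe sets, with group alone in the model, two-sided, with Benjamini-Hochberg adjustment and a threshold of 0.05. The fit was tested on simulated data. Counts at unadjusted p under 0.05 are a description, since their share over all probe sets was not examined. From each list other than the marker lists every called probe set was named, or else the 2 with the smallest p. In the marker lists the called probe sets were counted, and only some were named. Genes beyond this rule were named after their values were seen.

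Arrays of the same number deviated together from their group means, with correlations of 0.32, 0.25 and 0.50 for numbers 1, 2 and 3. They were taken as pairs on this ground alone, since the labels give only numbers. Alternatives were a block for the replicate number, pseudocounts of 16 and 64, quantile normalization, a mean intensity of at least 100, the brightest probe set of each gene, leaving out each array, and leaving out EBF 3 and control 2 together. Sequences are from RefSeq. The number of arrays limits the precision.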

Additional observations from a re-analysis of the deposited data

How the results depend on the processing

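The Scn4b difference kept its direction and stayed within 1 SD between replicates under all 13 alternatives, at 1.71 to 1.94. The block, the intensity filter and the choice of the brightest probe set cannot move the difference of a probe set. It stayed at 1.85 there, so these settings are no check of its size. Of 179 values of the other members under the alternatives, which include these settings, 178 moved by less than the SD between replicates. The exception was 1442208_at of Scn8a, with 0.03 under quantile normalization. With the replicate number as a block, taken as pairing, 3280 of all probe sets were called in place of 394, and 4 among partners, 3 among calcium channels, 2 among potassium and proton channels, 6 among pumps and exchangers, 2 among adhesion relatives and 2 among neighbours of Scn4b. The block changed no call among members or other sodium channel genes.

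Leaving out EBF 3 and control 2 together gave 1887 calls in all, with 1 among partners, 1 among calcium channels, 2 among potassium and proton channels, 1 among pumps and exchangers, 3 among adhesion relatives and 2 among neighbours. The brightest probe set of each gene gave 0 calls among potassium and proton channels, 1 among pumps and exchangers and 0 among adhesion relatives. Pumps and exchangers also gave 1 with a pseudocount of 64 and 1 with quantile normalization. Leaving out 1 array at a time gave 79 to 4287 calls in all, the highest without EBF 3, where each list that gave any calls also had its highest count. The ranges were 1 to 3 for members, 0 to 6 for partners, 0 to 3 for calcium channels, 0 to 4 for potassium and proton channels, 0 to 3 for lymphocyte channels, 0 to 5 for pumps and exchangers, 0 to 3 for adhesion relatives and 0 to 4 for neighbours. The other sodium channel genes had 0 calls throughout. The causes were not tested. Most sodium channel probe sets read near the Bacillus controls, which limits what could be seen of them.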
